A study of Mus musculus with 61 samples.

Results

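The presomitic mesoderm is the unsegmented tissue at the posterior end of the vertebrate embryo from which somites are cut off one after another. 10 genes that mark this tissue or its segmentation clock were followed in mouse stembryos, aggregates of mouse embryonic stem (mES) cells that elongate in culture, also called gastruloids. The genes were chosen by name, and are Tbx6, Msgn1, Dll1, Dll3, Hes7, Lfng, Nrarp, Mesp2, Ripply2 and Rspo3, 10 of the 55052 genes in the deposited expression table. All 10 were measured in each of 61 RNA-seq libraries, and all 10 passed the filter on low values described with the tests.

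In the embryo, Wnt and FGF signals keep cells of the posterior presomitic mesoderm immature, and the transcription factors Tbx6 and Msgn1 commit progenitors to this mesoderm. There, Notch signalling and its feedback inhibitors rise and fall together in neighbouring cells, which sets the rhythm of the segmentation clock. Where the posterior signals fade, Mesp2 and Ripply2 are switched on in a stripe that places the next somite border, and Ripply2 then closes down Tbx6 activity.

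The wild-type time course held 2 libraries at each of 8 stages, 72, 84, 96, 108, 120, 132, 144 and 168 h after aggregation. Outside it there were 45 libraries, 10 of them wild type, with 4 sampled at 96 h, 4 at 120 h and the remaining 2 at 144 h. The mutants carry changes in or beside the HoxD cluster on chromosome 2, where CBS stands for a binding site of the insulator protein CTCF. They were deletions of single sites, Del(CBS1), Del(CBS2) and Del(CBS4), of several sites, Del(CBS1-2) and Del(CBS1-5), of the segment named d1-d4, Del(d1-d4), and of the neighbouring regulatory domain, Del(sub-TAD1), and an insertion of sites, Ins(2xCBS-d4d8). All were sampled at 96 h and 120 h except Del(CBS4), at 120 h and 144 h, and Del(CBS1-5) was sampled at 144 h as well. Mutant conditions had 2 libraries each, and Del(sub-TAD1) had 3 at 96 h.

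All lines, controls included, were aggregated and received a pulse of a Wnt agonist before 72 h, and no condition went without it. Each library was made from pooled stembryos, and from 108 h onward only elongating stembryos were collected. Most mutants are homozygous CRISPR clones of the wild-type EmbryoMax 129/SVEV cells, with Del(CBS1-2) made on top of Del(CBS1), whereas Del(CBS1-5) and Del(sub-TAD1) cells came from blastocysts of mutant mice, the latter with a transgene that supplies Mtx2. Line, genetic background and deletion therefore cannot be told apart for them. The labels name no separate clones for the CRISPR mutants, so clone and alteration cannot be told apart there. In bulk RNA, fewer cells of a type and less RNA per cell cannot be told apart either.

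None of the 10 genes lies in the altered region. Nrarp shares chromosome 2 with HoxD, at chr2:25180758-25183339 on the plus strand (mm10). The others lie at chr7:126781483-126785560 (Tbx6, plus strand), chr12:11208360-11208972 (Msgn1, minus), chr17:15367354-15376872 (Dll1, minus), chr7:28293553-28302238 (Dll3, minus) and chr11:69120404-69124055 (Hes7, plus). Lfng lies at chr5:140607320-140615545 (plus), Mesp2 at chr7:79810727-79813439 (plus), Ripply2 at chr9:87015537-87019917 (plus) and Rspo3 at chr10:29452416-29535867 (minus).

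Levels are FPKM, a measure that divides the fragments of a gene by transcript length and library size, so levels of different genes are compared per length. Depth, inferred from the confidence bounds in the tables, was 14.2 M to 36.8 M fragments (M stands for 1e6) with a median of 22.7 M. A value of up to 3 fragments was read as not detected, and such limits cover counting error only. The libraries fell into sets by the summed FPKM of Gm-numbered genes, predicted genes without a proper name. This sum was 81637 to 115853 in 28 libraries (set 1) and 6452 to 23855 in 33 (set 2). Set 1 held replicates 1 to 3 of wild type at 96 h and 120 h, Del(CBS1), Del(CBS1-2), Del(CBS2), Del(d1-d4), Del(CBS1-5) at 96 h and 120 h and Del(sub-TAD1) at 120 h, and set 2 held all others, the time course included. What the sets are is not given in the sources used here.

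The promoter windows of Msgn1, the first of the 10 genes to peak, of Lfng, and of Mesp2 and Ripply2, which appeared together at 96 h, are shown because they frame the order of events in the time course. They are 300-base windows around the RefSeq start (GRCm38.p6), printed 5′ to 3′ in the direction of the gene. Capitals mark every match, read on both strands, to TCACAC (part of a T-box site), TGGGAA (the core bound by RBPJ, the DNA-binding partner of Notch) or CTTTGA (a core bound by the Wnt effectors TCF and LEF).
Msgn1, chr12:11208899-11209198, - strand: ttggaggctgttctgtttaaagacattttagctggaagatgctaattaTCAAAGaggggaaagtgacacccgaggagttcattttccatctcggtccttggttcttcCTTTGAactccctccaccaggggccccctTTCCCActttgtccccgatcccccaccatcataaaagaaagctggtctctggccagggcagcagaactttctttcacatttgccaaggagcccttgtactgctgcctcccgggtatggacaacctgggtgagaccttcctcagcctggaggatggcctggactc
Lfng, chr5:140607091-140607390, + strand: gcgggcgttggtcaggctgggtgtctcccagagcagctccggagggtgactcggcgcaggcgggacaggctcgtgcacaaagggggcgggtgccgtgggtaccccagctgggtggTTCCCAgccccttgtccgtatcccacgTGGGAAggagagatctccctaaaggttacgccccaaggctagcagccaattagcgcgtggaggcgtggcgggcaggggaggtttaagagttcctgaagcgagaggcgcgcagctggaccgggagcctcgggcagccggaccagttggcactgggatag
Mesp2, chr7:79810477-79810776, + strand: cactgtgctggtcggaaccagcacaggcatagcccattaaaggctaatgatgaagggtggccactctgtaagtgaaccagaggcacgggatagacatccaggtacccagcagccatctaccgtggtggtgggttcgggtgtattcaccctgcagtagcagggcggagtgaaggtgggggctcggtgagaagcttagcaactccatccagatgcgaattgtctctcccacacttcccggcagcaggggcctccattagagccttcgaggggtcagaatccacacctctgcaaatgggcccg
Ripply2, chr9:87015287-87015586, + strand: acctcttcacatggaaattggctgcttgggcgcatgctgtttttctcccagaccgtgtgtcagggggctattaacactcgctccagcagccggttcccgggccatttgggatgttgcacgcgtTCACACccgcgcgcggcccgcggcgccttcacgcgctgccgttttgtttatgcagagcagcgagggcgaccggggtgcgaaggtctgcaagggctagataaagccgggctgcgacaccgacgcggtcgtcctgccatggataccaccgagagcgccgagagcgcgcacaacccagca

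Windows were found for 9 of the 10 genes, Dll1 having several starts, and there was no entry for Rspo3. TGGGAA occurred in the windows of Msgn1, Hes7 and Lfng, 3 of the 9 genes, and in 25.6% of all 32851 windows of this length. TCACAC occurred for Dll3 and Ripply2, 2 of 9, against 14.5% of all windows, and CTTTGA for Msgn1 alone, 1 of 9, against 16%. A match describes letters and not a bound site, and a window without a match, such as that of Mesp2, says nothing about distant enhancers.

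The first question was in which order the genes came on and went off in wild type. The transcription factor Msgn1 peaked first, at 84 h, 8 genes had their highest mean at 96 h and the Notch inhibitor Nrarp at 108 h. At 84 h, Mesp2 and Ripply2, the genes of the forming somite border, were still near the limit of detection. By 168 h, Tbx6, Msgn1, Hes7, Mesp2 and Ripply2 all lay under 1 FPKM, whereas Dll1, Lfng and Nrarp were far from it.

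**Figure D1:**
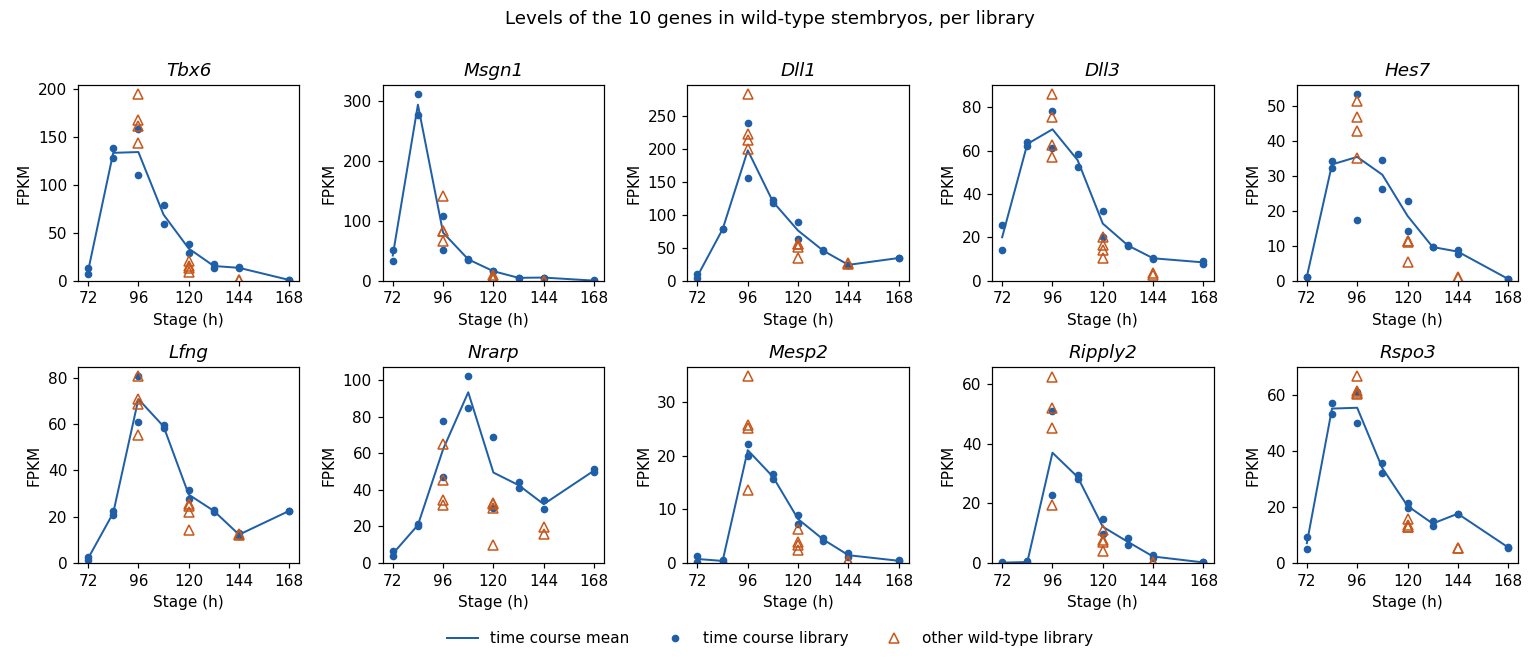
FPKM against stage in hours for each of the 10 genes in wild type; filled circles are the 2 time course libraries per stage, the line joins their means, and open triangles are the 10 wild-type libraries outside the time course. Msgn1 reaches its highest values at 84 h (277 and 311 FPKM), most others at 96 h, and at 144 h the triangles of Tbx6 (0.503 and 1.01) lie below both circles (13.9 and 13.1).

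Msgn1 stood at 51.3 and 33.1 at 72 h, 277 and 311 at 84 h, 109 and 51.9 at 96 h, then at 34.9 and 36.6 at 108 h, 15.5 and 16.4 at 120 h, 5.14 and 4.67 at 132 h, 5.39 and 5.19 at 144 h. At 168 h one library had 0.430 FPKM and the other listed Msgn1 at 0. Both 84 h libraries were above every other library of the course. Tbx6, the T-box factor that keeps paraxial mesoderm from turning neural, stood at 12.9 and 7.14 at 72 h, 129 and 139 at 84 h, 159 and 110.1 at 96 h, and at 59.2 and 79.1 at 108 h, 28.8 and 38.6 at 120 h, 13.1 and 17.7 at 132 h, 13.9 and 13.1 at 144 h, 0.768 and 0.802 at 168 h. Its 84 h and 96 h levels overlapped, whereas those of Msgn1 did not.

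The Notch ligand Dll1 stood at 9.51 and 4.62 at 72 h, 77.9 and 78.3 at 84 h, 239 and 156 at 96 h, 118 and 122 at 108 h, and at 63.5 and 88.5 at 120 h, 46.0 and 45.1 at 132 h, 23.6 and 24.6 at 144 h, 34.0 and 34.9 at 168 h. Dll3, a divergent ligand that acts inside the cell and lowers Notch signalling, stood at 25.8 and 14.3 at 72 h, 63.8 and 62.3 at 84 h, 78.3 and 61.4 at 96 h, 52.6 and 58.6 at 108 h, and at 20.4 and 32.3 at 120 h, 16.5 and 16 at 132 h, 10.1 and 10.6 at 144 h, 9.0 and 7.92 at 168 h. Dll3 was thus already at 90.3% of its highest stage mean at 84 h, where Dll1 was at 39.5%, and the 84 h and 96 h levels overlapped for Dll3 but not for Dll1.

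Lfng, a glycosyltransferase that modifies Notch, stood at 2.68 and 1.13 at 72 h, 22.3 and 20.9 at 84 h, 60.9 and 80.6 at 96 h, 58.2 and 59.8 at 108 h, and at 27.5 and 31.5 at 120 h, 22.8 and 22.1 at 132 h, 11.5 and 12.9 at 144 h, 22.6 and 22.5 at 168 h. Hes7, a transcriptional repressor whose own feedback drives the clock, stood at 1.15 and 1.2 at 72 h, 34.2 and 32.3 at 84 h, 53.3 and 17.5 at 96 h, 26.2 and 34.4 at 108 h, and at 14.2 and 22.9 at 120 h, 9.55 and 9.75 at 132 h, 7.77 and 8.89 at 144 h, 0.467 and 0.563 at 168 h. Nrarp, which is induced by Notch and restrains it, stood at 6.24 and 3.69 at 72 h, 20 and 21.4 at 84 h, 77.5 and 46.8 at 96 h, 84.6 and 102.2 at 108 h, and at 29.8 and 69.1 at 120 h, 44.2 and 40.9 at 132 h, 29.7 and 34.6 at 144 h, 51.2 and 49.9 at 168 h. At 96 h the first library was the higher for Hes7 and Nrarp and the second for Lfng. Lfng and Nrarp were higher at 168 h than at 144 h in both libraries, while Hes7 was lower in both.

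Mesp2, the factor that sets the somite border, stood at 1.27 and 0.190 at 72 h, 0.214 and 0.514 at 84 h, 19.9 and 22.2 at 96 h, 15.7 and 16.5 at 108 h, and at 7.36 and 9.02 at 120 h, 4.61 and 4.14 at 132 h, 1.80 and 1.08 at 144 h, 0.297 and 0.489 at 168 h. Ripply2, its target and the partner that ends the Tbx6 domain, was at or under the limit of 3 fragments in both 72 h libraries and in 1 of the 84 h libraries, with 0.578 FPKM in the other. It then stood at 22.9 and 51.1 at 96 h, 29.4 and 28.2 at 108 h, 14.7 and 9.55 at 120 h, 5.86 and 8.22 at 132 h, 1.54 and 2.75 at 144 h, and was again at or under that limit in both 168 h libraries. Both genes were low at 72 h and 84 h and had their highest mean at 96 h. Rspo3, a secreted protein that strengthens Wnt signalling and the only ligand of that kind among the 10 genes, stood at 9.27 and 4.81 at 72 h, 57.1 and 53.0 at 84 h, 60.8 and 49.8 at 96 h, 35.5 and 32.1 at 108 h, and at 21.2 and 19.4 at 120 h, 13.1 and 15.0 at 132 h, 17.6 and 17.5 at 144 h, 5.63 and 5.44 at 168 h.

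**Figure D2:**
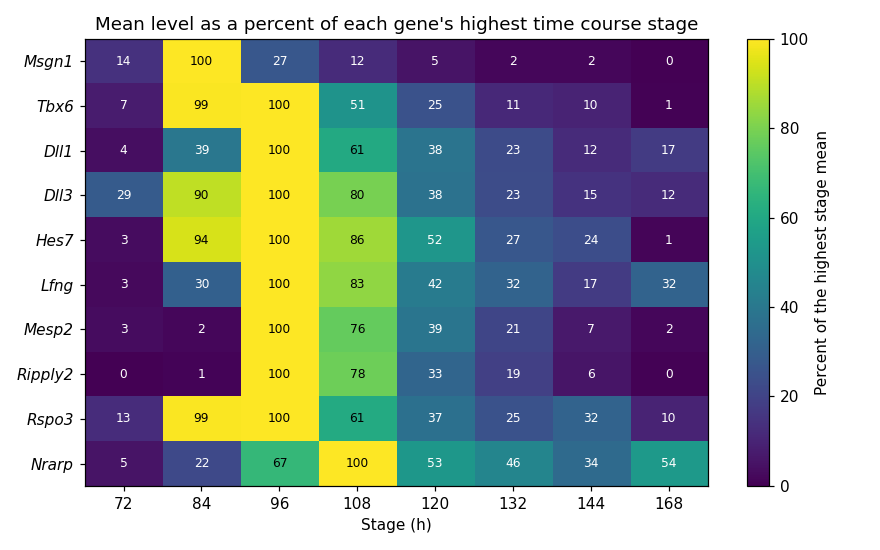
Mean of the 2 time course libraries per stage, as a percent of each gene's highest stage mean, for the 10 genes (rows, in order of the peak stage) and 8 stages in hours (columns). At 84 h, Tbx6 and Rspo3 are near 100%, Dll1 at 39.5% and Lfng at 30.5%, and Mesp2 and Ripply2 at 1.73% and 0.781%.

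Neighbouring stages were tested with limma on log2(FPKM + 0.1), with p-values adjusted over 17098 genes and a threshold of 0.05. Changes are on that log2 scale ± the standard error, and understate the change of low genes. From 72 h to 84 h, 8 of the 10 genes passed, all upward, against 16.3% of all genes tested in either direction. Shares of all genes given below likewise count both directions. Hes7 rose by 4.71 ± 0.33 (adjusted p = 2.63e-13) and Tbx6 by 3.78 ± 0.34 (adjusted p = 1.23e-10). Rises of the other 6 ran from 1.71 ± 0.24 for Dll3 to 3.55 ± 0.27 for Lfng, and all 8 calls held under each of the 9 alternatives. Mesp2 (-0.52 ± 0.60) and Ripply2 (0.66 ± 0.82) did not pass.

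From 84 h to 96 h, 6 of 10 passed, against 20.7% of all genes. Ripply2 rose by 7.04 ± 0.82 (adjusted p = 3.56e-08) and Mesp2 by 5.59 ± 0.60 (adjusted p = 7.32e-09), a 57.9-fold higher mean of FPKM for Mesp2. Dll1, Lfng and Nrarp rose by 1.31 ± 0.21, 1.70 ± 0.27 and 1.54 ± 0.39. Msgn1 fell, with a log2 change -1.96 ± 0.51, adjusted p = 0.00435. The Msgn1 call was lost in 4 of 9 alternatives, among them the fit without the replicate 2 libraries (-1.35, adjusted p = 0.211), and that of Nrarp without the replicate 1 libraries (1.12, adjusted p = 0.189). Tbx6, Dll3, Hes7 and Rspo3 changed by -0.12 to 0.14 and did not pass.

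After 96 h the steps were smaller. From 96 h to 108 h, 2 of 10 passed against 9.45% of all genes, with falls of Dll1 (-0.69 ± 0.21) and Rspo3 (-0.70 ± 0.19). From 108 h to 120 h, 4 of 10 passed against 7.06%, with falls of Dll3 (-1.11 ± 0.24), Lfng (-1.0 ± 0.27), Rspo3 (-0.73 ± 0.19) and Dll1 (-0.68 ± 0.21). From 120 h to 132 h limma called none of the 10, against 2.46% of all genes, and 6 had an unadjusted p under 0.05. From 132 h to 144 h, Dll1 (-0.92 ± 0.21) and Lfng (-0.88 ± 0.27) fell, 2 of 10 against 5.42%. Each of these 8 calls was lost with the time course libraries fitted alone, and 7 of the 8, all but that of Dll1 from 132 h to 144 h, also when the replicate 1 libraries were left out (adjusted p 0.071 to 0.485 over these fits). Without those libraries Dll1 changed by -0.36 from 96 h to 108 h. Those of Rspo3 and Lfng, 4 of the 8, also missed it without the replicate 2 libraries (adjusted p 0.0566 to 0.22).

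Over the longer intervals the decline was clearer. From 96 h to 120 h in the time course, 6 of 10 passed, all downward, against 15.1% of all genes, led by Msgn1 (-2.23 ± 0.51) and Tbx6 (-1.98 ± 0.34). Hes7, Nrarp, Mesp2 and Ripply2 changed by -0.76 ± 0.33, -0.41 ± 0.39, -1.36 ± 0.60 and -1.52 ± 0.82 without passing. From 120 h to 144 h, 8 of 10 passed, again downward and again against 15.1%, all but Nrarp and Rspo3. The Msgn1 call from 96 h to 120 h was lost without the replicate 1 libraries (-1.66, adjusted p = 0.0824). From 120 h to 144 h, the fit without the replicate 2 libraries lost Tbx6, Hes7, Mesp2, Msgn1 and Ripply2 (adjusted p 0.0816 to 0.217), and the fit without replicate 1 lost Msgn1 and Ripply2 (0.114 and 0.418).

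From 144 h to 168 h the genes parted. Tbx6 fell by 3.94, Msgn1 fell by 4.55 and Hes7 fell by 3.78 on the log2 scale (adjusted p = 1.33e-10, 4.84e-08 and 2.03e-10). The change of Msgn1, listed at 0 in a 168 h library, ran from -6.32 to -2.40 over the alternatives. Ripply2 and Rspo3 fell too (-3.08 ± 0.82 and -1.64 ± 0.19). Lfng rose, with a log2 change 0.88 ± 0.27, adjusted p = 0.0316. These are 6 of 10, against 9.87% of all genes. Ripply2 was at least 4.26-fold lower at 168 h, taking the limit of 3 fragments in the 168 h libraries. Fitted without replicate 1 or without replicate 2, the calls of Lfng and Ripply2 were lost (adjusted p = 0.274 and 0.15 for Lfng and 0.0874 and 0.215 for Ripply2), and the other 4 held under each alternative. Dll1, Nrarp and Dll3 changed by 0.52 ± 0.21, 0.66 ± 0.39 and -0.29 ± 0.24 without passing.

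Other cell types changed over the same stages. The summed FPKM of 8 spinal cord markers (Sox1, Pax6, Irx3, Olig2, Neurog2, Nkx6-1, Tubb3 and Dbx1) was 10 to 13.0 at 96 h, 78.7 to 78.8 at 144 h and 311 to 334 at 168 h, and 5 of the 8 markers rose from 144 h to 168 h. Hes5, a Notch target of neural progenitors, rose by 2.89 ± 0.50 over that step. The part of such cells in the levels of Dll1, Lfng and Nrarp at 168 h was not tested. The summed FPKM of 9 somite markers (Meox1, Meox2, Tcf15, Pax1, Pax3, Pax9, Aldh1a2, Fst and Myf5) was 611 to 633 at 108 h and 128 to 146 at 168 h. It was already 402 to 419 at 72 h and 395 to 399 at 84 h, so the sum alone does not show somites. The defining markers of presomitic mesoderm, Tbx6 and Msgn1, were detected in the course, as were genes of the somite list.

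Related pathways were counted over lists of genes. Of 17 further Notch pathway genes, all tested, 8 rose and 1 fell from 84 h to 96 h, the largest changes being those of Heyl (2.29 ± 0.36) and Hes5 (2.15 ± 0.50), both Notch targets. Of 10 genes of the anterior presomitic mesoderm and somite border, 9 rose and none fell, led by Foxc2 (4.69 ± 0.33) and the protocadherin Pcdh8 (4.37 ± 0.55). Of 10 FGF feedback genes, 6 fell and 1 rose over that step, led by Spry4 (-1.46 ± 0.28) and Dusp4 (-1.06 ± 0.29), which dampen the ERK pathway. Of 9 Wnt feedback and target genes, 2 rose and 2 fell. Of 8 neuro-mesodermal progenitor genes, 5 fell and none rose, with Nkx1-2 at -2.73 ± 0.40. Of 6 R-spondin ligand and receptor genes, 3 were tested, and Lgr5 rose (1.79 ± 0.42) while Lgr4 fell (-0.82 ± 0.20). Median changes of these lists were 0.79, 2.7, -0.76, -0.07, -1.36 and -0.09 in this order, beside -0.01 over all genes tested.

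The genes outside the group with the most similar course were found by Pearson's r of log2(FPKM + 0.1) over the 16 time course libraries, given without a test since stages and depth are shared. Lfng ran closest to the receptor Notch1 (r = 0.99, and 0.90 over the 45 other libraries), and its next were Ajap1 (0.95) and Draxin (0.95). Notch1 was also nearest to Dll1 (r = 0.96), followed by Agrn (0.95) and Pcdh19 (0.95). Msgn1 ran with Gcnt1 (0.97), the FGF inhibitor Spry2 (0.97) and Cdx1 (0.97), of which Cdx1 kept r = 0.98 over the other libraries and Gcnt1 had 0.40. Tbx6 ran with Col13a1, Adamtsl2 and Ppfibp1 (r 0.94 to 0.97), and Rspo3 with Cited1, Fgf3 and Inka1 (0.95 to 0.97). Mesp2 ran with Cer1, Gzmk and Adgrd1 (0.95 to 0.97). Ripply2 ran with Prkd1, Map3k6 and its own relative Ripply1 (r = 0.95 for each), but over the other libraries r of Ripply2 and Ripply1 was 0.15. For Dll3 the nearest were Prtg, Nr6a1 and Rftn1, for Hes7 Gm45889, Peli3 and Cited1, and for Nrarp Tmcc2, Maml3 and AW011738, with r from 0.93 to 0.97.

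The wild-type libraries outside the time course answer whether the decline is seen in separate samples. All 10 genes fell from 96 h to 120 h, with 27.1% of all genes called in either direction and 1961 of 17098 lower. From 120 h to 144 h 9 fell, with 38.2% called and 3452 lower. Msgn1 stood at 66.8, 83.6, 142 and 83.3 FPKM in the 4 libraries at 96 h and at 5.16, 4.96, 9.33 and 3.13 at 120 h, and both 144 h libraries listed it at 0. Tbx6 stood at 144, 162, 195 and 168, then at 14.9, 13.5, 21.0 and 9.52, then at 0.503 and 1.01. No library of one stage overlapped with the next for either gene. Of the 120 h libraries, 3 are of set 1 and replicate 4 of set 2, as are both at 144 h, so stage and library set changed together over the second interval. Beside replicate 4 alone, the 144 h levels were 12.6 and 11.9 against 14.1 for Lfng, 27.6 and 24.9 against 34.8 for Dll1 and, in the other direction, 19.6 and 16 against 9.97 for Nrarp. With only the compared groups fitted, the calls of Dll1 (-0.88, adjusted p = 0.121) and Lfng (-0.77, adjusted p = 0.205) over that interval were lost. From 96 h to 120 h, Msgn1 fell by 4.08 and Tbx6 fell by 3.54 on the log2 scale (adjusted p = 2.87e-11 and 3.86e-14).

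Of the clock and border genes in these libraries, Mesp2 stood at 25.8, 25.2, 13.7 and 34.9 at 96 h, 3.91, 3.36, 6.34 and 2.44 at 120 h and 0.331 and 0.287 at 144 h. Ripply2 stood at 52.0, 45.4, 19.6 and 62.5, then 7.77, 7.13, 11.1 and 3.92, and was at or under the limit of 3 fragments in both 144 h libraries, so that it was at least 18.0-fold higher at 120 h. Nrarp stood at 31.8, 45.3, 64.8 and 34.2, then 33.0, 29.9, 32.4 and 9.97, then 19.6 and 16. The 96 h and 120 h levels of Nrarp overlapped, and it had the smallest of the 10 changes, with -0.83 ± 0.27 from 96 h to 120 h, a call that was lost without replicate 3 at 96 h (-0.62, adjusted p = 0.111) or without replicate 4 at 120 h (-0.41, adjusted p = 0.162). From 120 h to 144 h it changed by -0.42 ± 0.33 and did not pass. The fall of Lfng over that interval (log2 change -0.77 ± 0.23, adjusted p = 0.00859) was lost without replicate 2 at 144 h (-0.73, adjusted p = 0.0798).

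Replicate 3 of wild type at 96 h had the highest Msgn1 and the lowest Mesp2, Ripply2 and Lfng of the 4 libraries. An age was estimated for each library by its fit to the time course over 1000 genes outside the Hox clusters and the lists used here. The 16 time course libraries, each left out of its own stage mean, came out 5 to 10 h from their labels, so smaller differences of age are not resolved. They are all of set 2, and the error of the age in set 1 was not measured. Replicate 3 came out at 91 h and the other 3 at 99, 100 and 101 h. Replicate 4 of wild type at 120 h, with the lowest level of all 10 genes, came out at 126 h, as did replicates 1 and 2, and is the one 120 h control of set 2.

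Wild-type libraries of the same labelled stage differed between the series. At 96 h none of the 10 genes was called by limma, against 32.3% of all genes, and 0 had an unadjusted p under 0.05. At 120 h, 30.1% of all genes were called, 2448 of the 17098 tested as higher. Of the 10 genes, 7 were higher in the time course, led by Msgn1 (1.59 ± 0.44) and Tbx6 (1.23 ± 0.29). Of these 7, 6 lost the call without time course replicate 2 at 120 h (adjusted p = 0.0506 for Msgn1, 0.0514 for Tbx6, and 0.212 to 0.635 for Dll1, Dll3, Hes7 and Nrarp) and Rspo3 without replicate 1 (0.51, adjusted p = 0.0935). Without time course replicate 2 the changes of Dll3, Dll1, Hes7 and Nrarp were 0.45, 0.39, 0.60 and 0.33, from 0.79, 0.63, 0.95 and 0.93 with that library. Nrarp also lost it without replicate 4 of the other wild type (0.52, adjusted p = 0.143).

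At 144 h, 21.5% of all genes were called, 1914 of the 17098 tested as higher, and 7 of the 10 were higher in the time course. Tbx6 was at 13.9 and 13.1 FPKM there and at 0.503 and 1.01 in the other series, 17.9-fold apart in the mean (log2 change 4.06 ± 0.34, adjusted p = 1.96e-10). Msgn1 was at 5.39 and 5.19 against 0 listed in both, at least 16.9-fold higher when the limit of 3 fragments is taken for the latter. Hes7 was at 7.77 and 8.89 against 0.664 and 1.07. The groups did not overlap for any of these 3 genes. Dll1 (-0.12 ± 0.21), Lfng (-0.01 ± 0.27) and Nrarp (0.85 ± 0.39) did not pass. The calls of Mesp2 and Ripply2 were lost without replicate 2 of the other wild type at 144 h (1.80, adjusted p = 0.121 and 2.7, adjusted p = 0.0685), and that of Mesp2 also without replicate 1 of it or of the time course (1.95, adjusted p = 0.0786 and 1.53, adjusted p = 0.188).

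Beside this, the estimated age was 153 and 139 h for the time course libraries at 144 h and 157 and 157 h for the others. The 8 spinal cord markers summed to 78.7 to 78.8 FPKM in the former and 142 to 163 in the latter, and 8 neuro-mesodermal progenitor markers (T, Sox2, Nkx1-2, Wnt3a, Cdx2, Cdx4, Fgf17 and Cyp26a1) to 279 to 287 and 119 to 121. Their part in the difference was not tested.

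The question for the mutants was whether the genes of the presomitic mesoderm keep their levels when the HoxD cluster is altered. Mutant libraries were set against those of stage-matched wild type not belonging to the course, which gave 17 comparisons with shared controls. Of 170 pairs of gene and comparison, 29 passed the threshold in the fit over all 61 libraries. With each comparison fitted on its own groups alone, 3 pairs passed. The genes called are read below beside the share of all genes called. Where mutant and controls are not of one library set, that share was up to 40.0%, so a result with only wild-type libraries of the same set (for set 2 these include the time course) stands beside it. That fit groups wild type by stage and set, so differences between time course and other set 2 controls enter the spread in all comparisons.

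**Figure D3:**
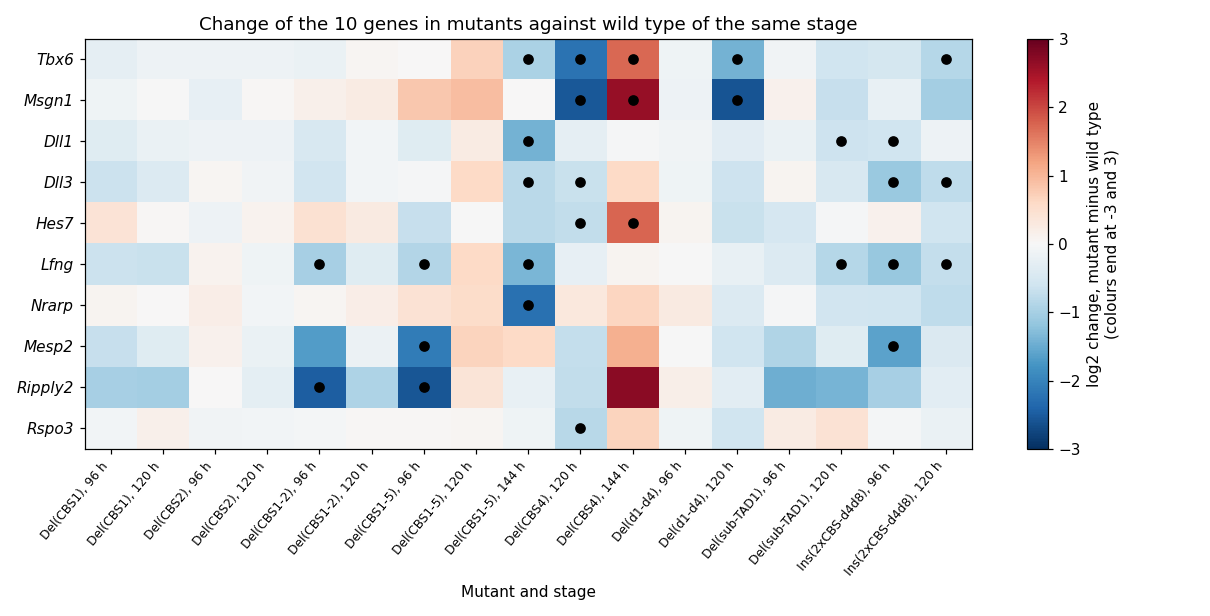
Log2 change of the 10 genes (rows) in each mutant and stage (columns) against stage-matched wild type from outside the time course; red is higher and blue lower in the mutant, colours end at -3 and 3, and black dots mark adjusted p under 0.05. Del(CBS2) columns are near white, Mesp2 and Ripply2 are blue in Del(CBS1-2) and Del(CBS1-5) at 96 h, and Tbx6 and Msgn1 are blue in Del(CBS4) and Del(d1-d4) at 120 h.

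In Del(CBS1) and Del(CBS2) limma called none of the 10 genes. The share of all genes called was 1.23% and 2.1% in Del(CBS1) at 96 h and 120 h, and 0.298% and 0.193% in Del(CBS2). Of the 10 genes, 2, 1, 0 and 0 had an unadjusted p under 0.05 in this order. In Del(CBS1) at 96 h, Ripply2 stood at 16.8 and 24.9 and Mesp2 at 13.0 and 16.5, inside or below the wild-type range, and their changes of -1.01 ± 0.71 and -0.69 ± 0.52 did not pass. In Del(CBS2), the 10 changes ran from -0.28 to 0.21 over both stages.

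At 96 h, both border genes passed as lower in Del(CBS1-5), Ripply2 but not Mesp2 in Del(CBS1-2), and Mesp2 but not Ripply2 in Ins(2xCBS-d4d8). Mesp2 stood at 25.8, 25.2, 13.7 and 34.9 FPKM in wild type, at 8.98 and 5.88 in Del(CBS1-2), 4.82 and 6.11 in Del(CBS1-5) and 4.46 and 13.3 in Ins(2xCBS-d4d8). Ripply2 stood at 52.0, 45.4, 19.6 and 62.5 in wild type, and at 8.62 and 6.30, 5.03 and 9.27 and 10.5 and 40.1 in these mutants. Lfng stood at 68.6, 70.6, 55.3 and 80.6 in wild type, and at 35.4 and 32.8, 34.7 and 39.6 and 23.4 and 41.4. Both libraries of Del(CBS1-2) and of Del(CBS1-5) lay below all 4 wild-type libraries for each of the 3 genes, and those of Ins(2xCBS-d4d8) for Mesp2 and Lfng but not Ripply2. In Del(CBS1) at 96 h, where none was called, 6 of the 10 genes also did not overlap with wild type. The number was 6 in Del(CBS1-2), 6 in Del(CBS1-5) and 5 in Ins(2xCBS-d4d8), and the share of all genes was not computed.

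**Figure D4:**
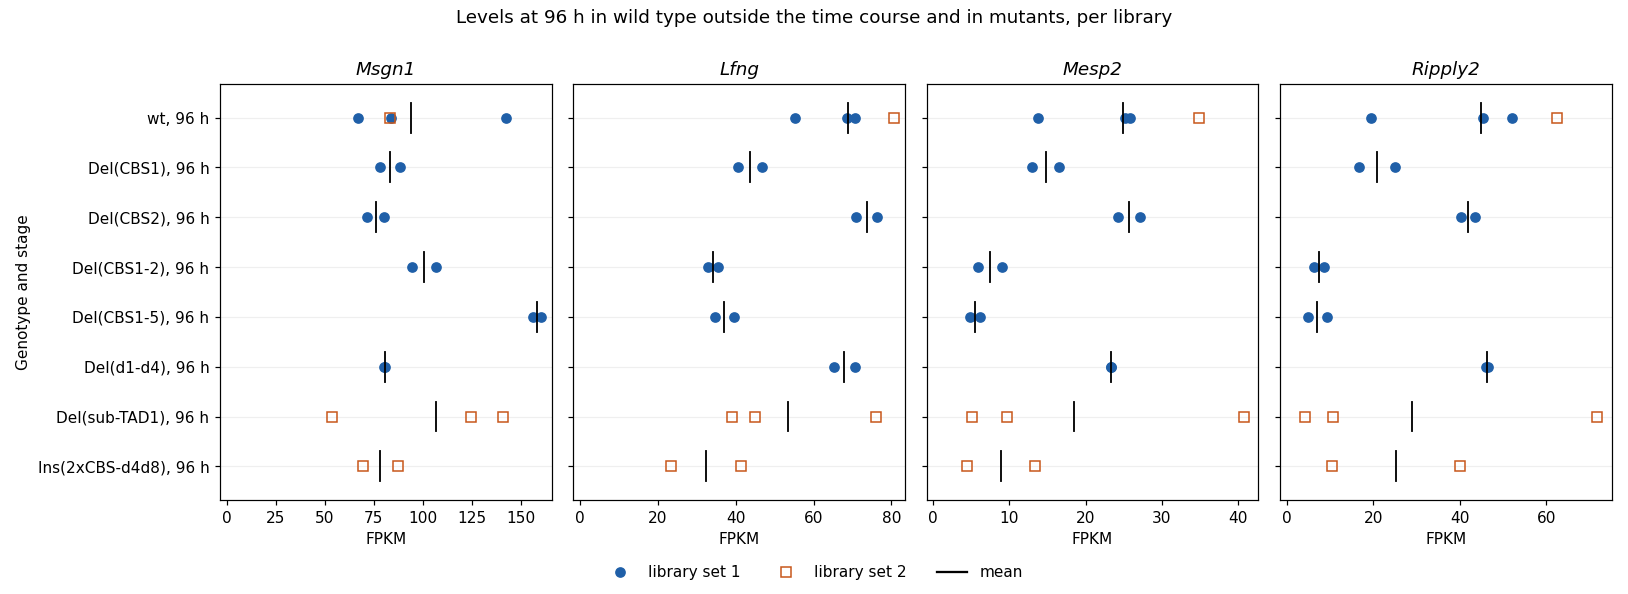
FPKM at 96 h of Msgn1, Lfng, Mesp2 and Ripply2, 1 point per library, in wild type outside the time course and in the mutants (rows); filled circles are library set 1, open squares set 2 and vertical bars group means. The group means of Mesp2 and Ripply2 are lowest in Del(CBS1-2) and Del(CBS1-5), and 1 of the 3 libraries of Del(sub-TAD1) has the highest values of both (40.8 and 71.6 FPKM).

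In Del(CBS1-2) at 96 h, 2 of 10 passed, against 4.49% of all genes, with falls of Lfng (log2 change -1.0 ± 0.23, adjusted p = 0.0106) and Ripply2 (log2 change -2.47 ± 0.71, adjusted p = 0.0382), and Mesp2 changed by -1.69 ± 0.52 without passing. Neither passed against wild type of the same set (-0.92, adjusted p = 0.0742 and -2.27, adjusted p = 0.314), nor without either mutant library (adjusted p = 0.125 and 0.18 for Lfng and 0.22 and 0.334 for Ripply2). Ripply2 also missed it without replicate 1 or 4 of wild type (0.0513 and 0.131). At 120 h limma called none of the 10, against 2.35% of all genes, with 0 at an unadjusted p under 0.05.

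In Del(CBS1-5) at 96 h, 3 of 10 passed, all downward, against 14.8% of all genes. Ripply2 fell by 2.58, Mesp2 fell by 2.10 and Lfng fell by 0.88 on the log2 scale (adjusted p = 0.0113, 0.00521 and 0.00923). Against wild type of the same set, Mesp2 (-1.92, adjusted p = 0.0433) and Lfng (-0.80, adjusted p = 0.0348) passed and Ripply2 (-2.38, adjusted p = 0.0898) did not. Without replicate 1 of the mutant all 3 missed the threshold (adjusted p = 0.188, 0.0919 and 0.137), and Lfng also without replicate 2 (0.0569). Msgn1, at 160.1 and 156 against 66.8, 83.6, 142 and 83.3, lay above all wild-type libraries, and its change of 0.81 ± 0.44 did not pass.

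In Ins(2xCBS-d4d8) at 96 h, 4 of 10 passed, all downward, against 27.9% of all genes, so the share of members was near that background. Dll3, at 29.0 and 35.7 against 57.0, 62.5, 75.5 and 86.0 in wild type, fell by 1.11 (adjusted p = 0.00033), and against the same set as well (-1.21, adjusted p = 0.0309). Lfng fell too (-1.13 ± 0.23, in the same set -1.23, adjusted p = 0.00206). Mesp2 (-1.60 ± 0.52) and Dll1 (-0.59 ± 0.18) fell, but not in the same set (-1.68, adjusted p = 0.0869 and -0.54, adjusted p = 0.117). Without replicate 1 of the mutant Lfng, Mesp2 and Dll1 missed the threshold (log2 changes -0.72, -0.82 and -0.51, adjusted p = 0.097, 0.468 and 0.16), and Dll1 also without replicate 2 (0.052).

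In Del(sub-TAD1) at 96 h limma called none of the 10, against 40.0% of all genes, with 1 at an unadjusted p under 0.05. Its libraries differed from each other. Mesp2 stood at 40.8, 9.71 and 5.05, Ripply2 at 71.6, 10.8 and 4.28 and Msgn1 at 53.7, 125 and 141 in replicates 1, 2 and 3. Replicate 1 thus had the highest border genes and the lowest Msgn1 of the 3. In the same order, the inferred depth was 18.1 M, 31.1 M and 28.1 M, and the summed FPKM of all genes was 551878, 485660 and 484035. In Del(d1-d4) at 96 h limma also called none, against 1.19%, with 0 at an unadjusted p under 0.05, and Mesp2 (23.3 and 23.2) and Ripply2 (46.1 and 46.6) lay within the wild-type range.

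Age and marker sums at 96 h are given beside these levels. The estimated age was 92 and 92 h in Del(CBS1-2), 91 and 90 h in Del(CBS1-5) and 92 and 100 h in Ins(2xCBS-d4d8), beside 101, 99, 91 and 100 h in wild type. It was 100 and 99 h in Del(d1-d4), 100 and 99 h in Del(CBS2), 100 and 93 h in Del(CBS1) and 92, 91 and 91 h in Del(sub-TAD1). The gap between libraries at 90 to 92 h and those at 99 to 101 h is close to the error of the estimate given above. The 10 anterior presomitic mesoderm and border genes summed to 126 to 228 FPKM in wild type, 84.4 to 104 in Del(CBS1-2), 92.8 to 105 in Del(CBS1-5) and 71.2 to 132 in Ins(2xCBS-d4d8). Of these 10 genes, 3, 5 and 4 fell in the respective mutant and none rose, against 4.49%, 14.8% and 27.9% of all genes called in either direction. In the order wild type, Del(CBS1-2), Del(CBS1-5) and Ins(2xCBS-d4d8), the summed neuro-mesodermal progenitor markers were 246 to 366, 475 to 478, 335 to 340.3 and 519 to 593. The progenitor sum of Del(CBS1-5) thus lay within the wild-type range and those of the other 2 mutants above it. The somite markers summed to 274 to 678, 370.3 to 404, 225 to 264 and 278 to 498 FPKM, below all wild-type libraries in Del(CBS1-5). The 8 pluripotency markers summed to 44.2 to 140.2, 59.9 to 63.0, 265 to 275 and 61.1 to 71.8, above all wild-type libraries in Del(CBS1-5), where 6 of the 8 rose. The part of age and of these tissues in the levels of Mesp2 and Ripply2 was not tested.

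At 120 h, Tbx6 and Msgn1 were low in several mutants. Tbx6 stood at 14.9, 13.5, 21.0 and 9.52 FPKM in wild type, 4.21 and 2.11 in Del(CBS4), 6.37 and 4.26 in Del(d1-d4) and 7.68 and 7.97 in Ins(2xCBS-d4d8). Msgn1 stood at 5.16, 4.96, 9.33 and 3.13 in wild type, 1.13 and 0.581 in Del(CBS4), 1.24 and 0.481 in Del(d1-d4) and 2.7 and 2.37 in Ins(2xCBS-d4d8). Both libraries of these 3 mutants lay below all 4 wild-type libraries for both genes. Of the 10 genes, 3 did not overlap with wild type in Del(CBS4), 4 in Del(d1-d4) and 5 in Ins(2xCBS-d4d8). The share of all genes doing so was not computed, so these counts are a description only.

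In Del(CBS4) at 120 h, 5 of 10 passed, all downward, against 37.5% of all genes, not far above that background. Msgn1 fell by 2.55 and Tbx6 fell by 2.21 on the log2 scale (adjusted p = 6.02e-05 and 1.22e-06). Both held without either mutant library and against wild type of the same set (-3.36, adjusted p = 0.0262 and -2.84, adjusted p = 0.0072). That set includes the time course, with Msgn1 at 15.5 and 16.4 FPKM and Tbx6 at 28.8 and 38.6, above all other wild type at 120 h. With only the compared groups fitted, both calls were lost (adjusted p = 0.105 and 0.104). Rspo3 (-0.82 ± 0.17) fell and held in the same set (-1.17, adjusted p = 0.0143), whereas Dll3 (-0.66 ± 0.21) and Hes7 (-0.75 ± 0.29) fell but did not hold there (-1.02, adjusted p = 0.0632 and -1.11, adjusted p = 0.237). Rspo3, Dll3 and Hes7 missed the threshold without replicate 2 of the mutant (log2 changes -0.41, -0.33 and -0.46, adjusted p = 0.119, 0.387 and 0.411), Dll3 also without replicate 3 of wild type (0.0573), and Hes7 without replicate 1, 2 or 3 of it (0.0936, 0.0874 and 0.101). Nrarp, at 30.0 and 29.3, and Lfng, at 16.7 and 19.0, changed by 0.32 ± 0.33 and -0.24 ± 0.23 without passing.

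In these Del(CBS4) libraries the 8 spinal cord markers summed to 94.6 to 162 FPKM against 14.6 to 39.4 in wild type, and 6 of the 8 rose, led by Dbx1 (5.20 ± 0.56) and Pax6 (3.11 ± 0.41). The 9 somite markers summed to 238 to 339.7 against 463 to 559, and the 8 endoderm markers to 7.78 to 9.77 against 23.3 to 205. The estimated age was 114 and 128 h. How far a shift in tissue makes up the low Tbx6 and Msgn1 was not tested.

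**Figure D5:**
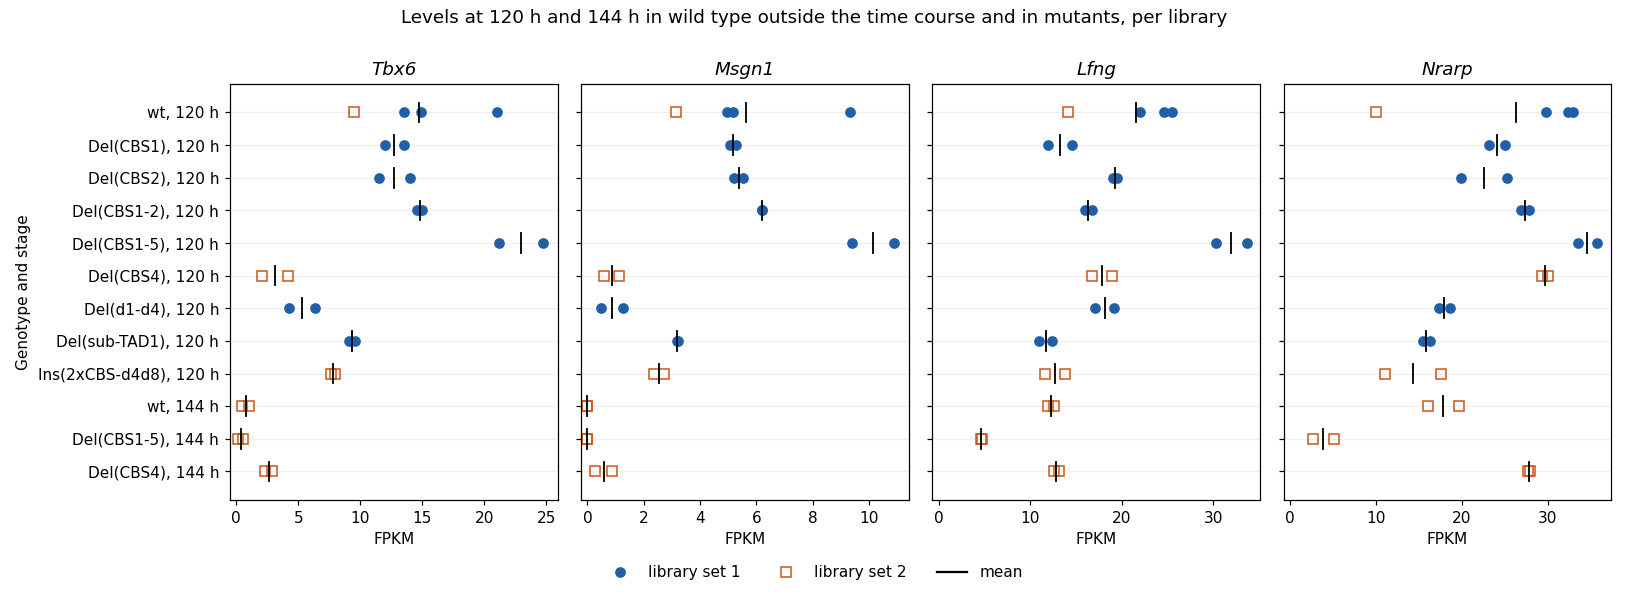
FPKM of Tbx6, Msgn1, Lfng and Nrarp at 120 h and 144 h, 1 point per library, in wild type outside the time course and in the mutants (rows); filled circles are library set 1, open squares set 2 and vertical bars group means. Tbx6 is lowest at 120 h in Del(CBS4) (4.21 and 2.11 FPKM), and at 144 h Lfng and Nrarp are lowest in Del(CBS1-5).

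In Del(d1-d4) at 120 h, 2 of 10 passed, against 1.85% of all genes, with falls of Msgn1 (log2 change -2.59 ± 0.44, adjusted p = 0.000721) and Tbx6 (log2 change -1.43 ± 0.29, adjusted p = 0.00665). Neither passed against the 3 wild-type libraries of its own set (-2.84 ± 1.03, adjusted p = 0.287 and -1.62 ± 0.72, adjusted p = 0.488). Both changes and both standard errors were larger in that fit, where the differing set 2 controls enter the spread. Neither passed without replicate 2 of the mutant (log2 changes -1.99 and -1.14). Of 9 Wnt feedback and target genes, 5 fell and none rose there, led by Notum (-1.69 ± 0.41) and Dkk1 (-1.59 ± 0.39), secreted Wnt inhibitors. Of the 8 progenitor markers 2 fell, Wnt3a (-2.28 ± 0.32) and T (-0.96 ± 0.24). The spinal cord markers, at 13.9 to 14.5 FPKM, lay just below the wild-type range of 14.6 to 39.4, and the estimated age was 126 and 126 h.

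In Ins(2xCBS-d4d8) at 120 h, 3 of 10 passed, against 26.9% of all genes, again near the background. They were falls of Tbx6 (-0.85 ± 0.29), Dll3 (-0.77 ± 0.21) and Lfng (-0.73 ± 0.23). Of these, Lfng held against the same set (-0.86, adjusted p = 0.0469), with controls at 14.1 FPKM (replicate 4) and 27.5 and 31.5 (time course). All 3 missed the threshold without replicate 1 of the mutant (adjusted p = 0.159, 0.0914 and 0.201), and Tbx6 and Lfng also without replicate 2 of it (0.128 and 0.0592) and without replicate 1 or 3 of wild type (0.0515 and 0.121 for Tbx6 and 0.0559 and 0.0624 for Lfng). In Del(sub-TAD1) at 120 h, 2 of 10 passed, against 6.15%. Lfng, at 10.9 and 12.4 against 25.5, 22.0, 24.6 and 14.1, and Dll1, at 29.4 and 33.8 against 55.4, 51.0, 56.0 and 34.8, fell (log2 change -0.85 ± 0.23 and -0.62 ± 0.18), and both held in the same set (-1.04, adjusted p = 0.00921 and -0.78, adjusted p = 0.0284). Both missed the threshold without either mutant library (0.273 and 0.123 for Lfng and 0.357 and 0.129 for Dll1) and without replicate 1 or 2 of wild type, Dll1 also without replicate 3 (0.0773 and 0.0548 for Lfng and 0.101, 0.0798 and 0.0693 for Dll1). In Del(CBS1-5) at 120 h limma called none of the 10, against 13.3%, with 4 at an unadjusted p under 0.05, and Tbx6 (24.7 and 21.2) lay above the highest wild-type library.

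At 144 h, Del(CBS1-5) and Del(CBS4) were compared with 2 wild-type libraries in which Tbx6, Msgn1, Hes7, Mesp2 and Ripply2 were already near the floor. In Del(CBS1-5), 5 of 10 passed, all downward, against 23.7% of all genes. Nrarp stood at 2.62 and 5.13 against 19.6 and 16 in wild type, Lfng at 4.64 and 4.71 against 12.6 and 11.9 and Dll1 at 9.40 and 10.1 against 27.6 and 24.9. The mutant libraries lay below both controls for each of these Notch genes. Of the 10 genes, 7 did not overlap with the controls, beside 9 in Del(CBS4) at 144 h, and the share of all genes was not computed.

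Nrarp fell by 2.24, Dll1 fell by 1.42 and Lfng fell by 1.37 on the log2 scale (adjusted p = 3.13e-05, 2.8e-06 and 0.000203). With the time course libraries added as controls of the same set, 8 of 10 passed, all downward, against 30.7% of all genes. The added calls were Rspo3 (-1.0, adjusted p = 0.0126), Hes7 (-2.39, adjusted p = 0.00115) and Msgn1 (-2.88, adjusted p = 0.0227), whose levels in the time course libraries were higher than in the other controls. Msgn1 was listed at 0 in both mutant libraries, so the size of its change is set by the pseudocount. In this fit the changes were -2.67, adjusted p = 2e-06 for Nrarp, -1.36, adjusted p = 5.09e-06 for Dll1 and -1.37, adjusted p = 3.6e-05 for Lfng. Dll3 (-0.82 ± 0.24) and Tbx6 (-0.94 ± 0.34, at 0.169 and 0.572 against 0.503 and 1.01 FPKM) fell too. Their calls were lost without replicate 1 of the mutant (adjusted p = 0.0893 and 0.763), that of Dll3 also without replicate 1 of wild type (0.156) and that of Tbx6 without replicate 2 of it (0.501). The change of Tbx6 was -0.28 without replicate 1 of the mutant and -0.50 without replicate 2 of wild type, and -2.97, adjusted p = 0.000977 with the same set as control.

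Of the 17 further Notch pathway genes, 9 fell and 1 rose in Del(CBS1-5) at 144 h, led by Hes5 (-2.50 ± 0.50) and the ligand Dll4 (-1.91 ± 0.43). Beside this, 6 of 8 spinal cord markers fell and summed to 44.1 to 45.6 FPKM against 142 to 163, and 7 of 8 pluripotency markers (Pou5f1, Nanog, Zfp42, Esrrb, Klf4, Tfcp2l1, Dppa3 and Fgf4) rose, Klf4 fell, and they summed to 309.6 to 311 against 4.38 to 6.68. The estimated age was 137 and 138 h, beside 157 and 157 h in these controls. Their part in the fall of the Notch genes was not tested.

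In Del(CBS4) at 144 h, 3 of 10 passed, all upward, against 2.05% of all genes. Tbx6 stood at 2.88 and 2.35 against 0.503 and 1.01, Hes7 at 3.34 and 2.82 against 0.664 and 1.07, and Msgn1 at 0.876 and 0.282 against 0 listed in both controls. The changes were 1.72 ± 0.34, 1.75 ± 0.33 and 2.61 ± 0.51 (adjusted p = 0.00268, 0.00197 and 0.00243), with the mean of Msgn1 at least 1.85-fold higher at the limit of 3 fragments. The second mutant library, at 0.282 FPKM, lay under the 0.313 FPKM that 3 fragments amount to in one control. With the time course libraries, where Tbx6 was at 13.9 and 13.1, added to the controls, none of the 3 passed and Tbx6 and Msgn1 turned direction (-0.31, adjusted p = 0.902 and -0.26, adjusted p = 0.975, and 0.17, adjusted p = 0.963 for Hes7). All 3 missed the threshold without replicate 1 of the mutant (adjusted p = 0.0781, 0.053 and 0.184), and Tbx6 and Hes7 also without replicate 1 of wild type (0.175 and 0.109).

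Whether a mutant's difference from wild type changed between its stages was tested as a contrast of its own, in 90 pairs of gene and interval, of which 12 passed. From 120 h to 144 h, 5 of 10 passed in Del(CBS1-5), against 7.07% of all genes, and 6 of 10 in Del(CBS4), against 8.27%. From 96 h to 120 h, Lfng passed in Del(CBS1-5), 1 of 10 against 0.257%. In the other 6 intervals, all from 96 h to 120 h, limma called none of the 10. The share of all genes was 0.0526% in Del(CBS1), 0.175% in Del(CBS1-2), 0.0117% in Del(CBS2), 0.0234% in Del(d1-d4), 23.6% in Del(sub-TAD1) and 0.392% in Ins(2xCBS-d4d8), with 0, 1, 0, 2, 0 and 0 of the 10 genes at an unadjusted p under 0.05. The lower Ripply2 at 96 h in Del(CBS1-2) (1.53 ± 1.0) and the lower Msgn1 at 120 h in Del(d1-d4) (-2.43 ± 0.62) were therefore not shown to differ between the stages.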

How the data were processed

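Poly(A)-selected RNA-seq libraries of pooled stembryos were used, 61 in all. The authors mapped and quantified the reads, and the deposited values are FPKM per gene. The submitters' processing notes name cutadapt 1.16, STAR 2.7.7a, Cufflinks 2.2.1 and the build mm10. FPKM are not counts, so no count test was run, and the depth was inferred from the confidence bounds that Cufflinks gives. Single and merged tables held the same FPKM.

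Groups came from the labels. Where groups are said not to overlap, the share of all genes doing so was not computed. With so few libraries per group, such separation can arise by chance. limma 3.58.1 in R 4.3.3 was fitted to log2(FPKM + 0.1) over all 28 conditions and 61 libraries, for the 17098 genes whose condition mean reached 1 FPKM at least once, with Benjamini-Hochberg adjustment over these genes and a threshold of 0.05. The scripts were tested on simulated data. Nothing in the labels says that replicates are separate cultures grown on separate days, so p-values measure only the spread between these libraries. The 10 genes and the gene lists were chosen with earlier results of these data known. All 10 genes are named in every comparison, of each list at most 2 genes with the largest change past the threshold, and nearest genes as the 3 with the highest r over the time course. Library sets were to be split by the mitochondrial sum, but these sums overlapped (4053 to 24514 FPKM), so the sum over Gm-numbered genes was used, with a limit of 50000 FPKM. Alternatives changed the pseudocount, the filter, the scaling, the variance model, the libraries fitted, the replicate block and single libraries.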

Additional observations from a re-analysis of the deposited data

Results flagged for a closer look

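In groups of 4 libraries, 3 of 20 checks (10 genes, wild type at 96 h and 120 h) found 1 library far from the others by Dixon's criterion, where chance alone gives about 1 in 20. Rspo3 was 66.7 FPKM in replicate 3 at 96 h, beside 60.1 to 61.2 in the other 3. At 120 h, replicate 4, the one control of set 2, had Hes7 at 5.32 beside 11.01 to 11.35, and Nrarp at 9.97 beside 29.9 to 33.0.

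The difference between mutant and wild type itself differed between stages for 12 pairs of gene and interval, tested as a contrast of 2 log2 changes in limma. In Del(CBS1-5) from 96 h to 120 h the change of Lfng moved by 1.48 ± 0.33 (adjusted p = 0.0383), a call lost with controls of the same set (adjusted p = 0.293) and in 9 of the 12 fits that leave out 1 library (adjusted p 0.0541 to 0.226).

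In Del(CBS1-5) from 120 h to 144 h the Notch genes moved down against wild type, Nrarp by -2.78 ± 0.51, Lfng by -1.97 ± 0.36, Dll1 by -1.67 ± 0.28 and Dll3 by -1.41 ± 0.32 (adjusted p = 0.000437, 0.000397, 0.000134 and 0.00376). Tbx6 moved by -1.63 ± 0.45 (adjusted p = 0.0217), and lost the call without replicate 2 of wild type at 144 h or replicate 1 of the mutant at 120 h or 144 h (adjusted p = 0.189, 0.11 and 0.3). Its change was -0.97 without the last of these. All 5 kept the call with controls of the same set.

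In Del(CBS4) from 120 h to 144 h, 6 genes moved up against wild type. Msgn1 moved by 5.16 ± 0.67, Tbx6 by 3.93 ± 0.45, Ripply2 by 3.46 ± 1.08, Hes7 by 2.49 ± 0.44, Rspo3 by 1.5 ± 0.25 and Dll3 by 1.25 ± 0.32 (adjusted p = 3.27e-06, 2.75e-07, 0.0421, 0.000289, 0.000163 and 0.0107). In wild type at 144 h Msgn1 was listed at 0 and Ripply2 was at or under 3 fragments, so the sizes for these 2 genes depend on the pseudocount. With pseudocounts of 1 and 0.01 FPKM they were 2.41 and 8.35 for Msgn1 and 1.56 and 5.25 for Ripply2, which then missed the threshold (adjusted p = 0.215 and 0.0592). With controls of the same set none of the 6 passed (adjusted p 0.197 to 0.529). Ripply2 also lost the call in 8 of the 10 fits that leave out 1 library (adjusted p 0.0589 to 0.203), and Dll3 without replicate 2 of wild type at 144 h (0.0883) or of the mutant at 120 h or 144 h (0.146 and 0.0588).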

How the results depend on the processing

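Calls of the 10 genes numbered 28 over the 7 time course steps, 14 over its 2 longer intervals, 19 in wild type outside the time course, 14 between the series, 29 in the mutants and 12 for changes of a mutant effect. With the time course libraries alone the steps gave 17 calls. With only the compared groups fitted, the series difference gave 5, the mutants 3 and the changes of effect 2. Controls restricted to one library set gave 18 for the mutants and 5 for the changes of effect, and 15 of the 29 mutant calls were among the 18. Tbx6 (-0.31) and Msgn1 (-0.26) in Del(CBS4) at 144 h turned direction there, where the added time course controls were higher. Leaving out 1 library, or all of 1 replicate number in the time course, gave 18 to 21, 10 to 11, 18 to 19, 8 to 15, 24 to 37 and 9 to 13 calls in the order above. Where that left 1 library in a group, it was assumed to vary like the other groups. Of the 116 called changes, 109 held with a pseudocount of 1 FPKM, 106 with 0.01 FPKM, 104 without the filter on low values, 109 with upper-quartile scaling and 116 with a variance trend and the robust option. Levels of Msgn1 and Ripply2 at or under 3 fragments, in wild type at 144 h and 168 h, were not resolved at this depth. Where no value above shows the cause of a changed call, the cause was not tested.

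Replicate numbers showed no common pairing within the time course or among the mutants. Pairing of a mutant with its wild-type control was not checked. Deviations from the group mean correlated with a median r of 0.0108 over 28 pairs of time course groups and 0.000426 over 120 pairs of mutant groups, with 1 pair over 0.1 in each. With the replicate number as a block the steps gave 17 calls, the longer intervals 9 and the mutants 49. The same libraries without the block, an alternative chosen after seeing the data, gave 35 for the mutants.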

Other observations

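Other tissues varied around the presomitic genes. Of the 9 somite markers, 8 were tested, and 6 rose and 1 fell from 84 h to 96 h, led by Pax3 (6.15 ± 0.64) and Meox1 (4.89 ± 0.35), while 8 pluripotency markers summed to 1199 to 1224 FPKM at 72 h and 62.0 to 81.5 at 96 h. The libraries of one stage differed in endoderm markers (Sox17, Foxa2, Epcam, Cdh1, Trh, Shh, Krt8 and Krt18), which summed to 128 to 594 FPKM in the time course at 96 h and 44.6 to 217 at 120 h, and in cardiac markers (Nkx2-5, Tnnt2, Myl7, Hand2, Gata4, Gata6, Tbx5 and Isl1), at 2.42 to 40.8 and 2.10 to 18.7.

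In Del(CBS1-5), 6 of 8 pluripotency markers rose at 96 h and 6 at 120 h, led by Dppa3 (5.04 ± 1.08 and 3.99 ± 1.08), and at 120 h all 6 tested of 8 endothelial markers (Kdr, Pecam1, Cdh5, Tie1, Etv2, Sox18, Tal1 and Gata1) rose, with sums of 11.9 to 15.3 FPKM against 1.79 to 3.97 in wild type. In Del(CBS4) at 120 h, 7 of 8 endoderm markers fell, led by Trh (-3.32 ± 0.65) and Sox17 (-2.90 ± 0.73).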
